A study of Mus musculus with 15 samples.

Results

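The widest stretches of open chromatin in these pancreatic tumour cell clones lay mostly over the starts of genes. They were taken as the autosomal peaks of the merged peak table that were 2000 bp or longer, which gave 436 of 66381 autosomal peaks and of 67945 peaks in all. They made up 0.657% of the autosomal peaks and 1.89% of the autosomal sequence under peaks. Their median length was 2169 bp and the longest was 3711 bp. Chromosome 14 held the smallest share, with 0.447% of its peaks, and chromosome 5 the largest, with 1.02%. They are called the widest peaks here, and the 15008 autosomal peaks of 600 to 800 bp served as the comparison.

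The assay was ATAC-seq: a transposase cuts accessible DNA and attaches adapters there, so reads accumulate where chromatin is open. Each library was made from 50000 sorted tumour cells of 1 clone, taken 3 weeks after the clone was implanted under the skin of C57BL/6 mice, with no treatment. The labels class 6 of the clones used here as T cell high (clones 7160c2, 6620c1, 6555c3, 6499c4, 6421c2 and 2838c3) and 7 as T cell low (clones 6694c2, 6556c3, 6499c3, 6422c1, 6419c5, 6419c1 and 2699c4). The study compared these groups. Each clone gave 1 library, so p-values measure the spread between clones, and clones whose names share a number (6419c1 and 6419c5, 6499c3 and 6499c4) counted as separate units. The labels used here list no engineered allele.

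Total counts in peaks ran from 968296 (7160c2) to 7369228 (6419c1), with 24215 to 199751 of them in the widest peaks. All 6 epithelial tumour markers (Cdh1, Epcam, Krt7, Krt8, Krt18 and Krt19) had a peak at their start. Of 22 leukocyte markers, 8 had one, among them Ptprc and Spi1, and their summed level was 53.4 to 111 CPM (counts per 1000000 counts of the scaled library) in the T cell high and 79.7 to 119 CPM in the T cell low libraries. The epithelial markers summed to 82.3 to 233 CPM and 97.99 to 211 CPM. The mean level per marker peak was 11.9 CPM for the leukocyte and 26.4 CPM for the epithelial list. Of 15 fibroblast and endothelial markers, 2 had one (Postn and Acta2). Cd3e, Cd8a, Pdgfra and Pecam1 had none. None of these leukocyte, fibroblast or endothelial markers had a widest peak. A peak shows open chromatin and not expression, and the part of other cells in any result was not tested.

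Most active mammalian promoters are free of nucleosomes over a short stretch just before the start of transcription. Broad open regions arise where several regulatory elements or several starts lie side by side, and many promoters that are open in most tissues lie in CpG islands, stretches rich in the dinucleotide CG that usually stay unmethylated. Genes of development and of cell identity are known for broad regulatory domains.

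To show what lies under these peaks, the 250 bases before the start of 6 genes are printed, 5′ to 3′ on the strand of the gene, from RefSeq on GRCm38.p6 (the assembly behind mm10), with every CG in capitals. Klf13, at chr7:63938916-63939165 (minus strand), had a peak among the highest per kb. Jun, at chr4:95052223-95052472 (minus strand), is an immediate early gene. Rasa2, at chr9:96631504-96631753 (minus strand), had the widest peak that varied least between clones. Twist1, at chr12:33957421-33957670 (plus strand), and Sall1, at chr8:89044163-89044412 (minus strand), had widest peaks that varied most. Dnmt3a, at chr12:3806730-3806979 (plus strand), was among the 10 members whose p in the group test was smallest. The genes printed were picked after their values had been seen.
Klf13: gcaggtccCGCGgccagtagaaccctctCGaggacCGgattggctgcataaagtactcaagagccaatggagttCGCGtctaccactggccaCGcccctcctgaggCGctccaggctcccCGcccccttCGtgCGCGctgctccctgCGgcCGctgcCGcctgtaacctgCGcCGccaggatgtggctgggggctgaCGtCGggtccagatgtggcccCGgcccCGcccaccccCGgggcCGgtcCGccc
Jun: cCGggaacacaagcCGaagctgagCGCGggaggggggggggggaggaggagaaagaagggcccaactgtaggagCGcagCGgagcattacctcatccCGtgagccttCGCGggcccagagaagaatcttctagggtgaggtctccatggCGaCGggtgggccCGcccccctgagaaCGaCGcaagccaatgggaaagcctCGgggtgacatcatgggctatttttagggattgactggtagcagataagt
Rasa2: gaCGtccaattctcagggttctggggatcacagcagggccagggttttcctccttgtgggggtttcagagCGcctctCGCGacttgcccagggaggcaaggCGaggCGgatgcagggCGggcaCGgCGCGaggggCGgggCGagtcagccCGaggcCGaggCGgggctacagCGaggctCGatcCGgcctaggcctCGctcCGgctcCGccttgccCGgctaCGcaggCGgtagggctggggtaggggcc
Twist1: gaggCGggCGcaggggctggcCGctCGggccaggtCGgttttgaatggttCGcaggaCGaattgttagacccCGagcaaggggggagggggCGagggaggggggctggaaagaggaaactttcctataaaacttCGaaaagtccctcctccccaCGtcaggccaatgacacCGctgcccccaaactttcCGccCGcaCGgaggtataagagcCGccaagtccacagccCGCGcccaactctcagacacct
Sall1: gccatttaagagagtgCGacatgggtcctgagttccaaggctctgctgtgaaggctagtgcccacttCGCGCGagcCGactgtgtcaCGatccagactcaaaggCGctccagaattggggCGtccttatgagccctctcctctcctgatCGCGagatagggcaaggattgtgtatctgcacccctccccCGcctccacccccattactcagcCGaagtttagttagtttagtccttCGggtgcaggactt
Dnmt3a: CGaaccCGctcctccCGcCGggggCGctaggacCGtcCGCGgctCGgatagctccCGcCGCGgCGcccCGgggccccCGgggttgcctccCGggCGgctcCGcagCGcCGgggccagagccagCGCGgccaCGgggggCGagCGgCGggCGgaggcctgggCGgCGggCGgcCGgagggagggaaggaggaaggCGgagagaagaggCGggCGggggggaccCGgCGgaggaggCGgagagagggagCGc
The stretch before Dnmt3a held 38 CG and 82.4% G or C, the one before Klf13 held 24 CG and the one before Sall1 held 13. The Sall1 stretch runs past the end of its peak, while the other 5 lie wholly inside theirs. Among these 6, the stretch before Sall1, whose peak varied most, held the fewest CG. The stretch before Twist1, also among the most variable, held 18, and the one before Rasa2, the least variable, held 24. Stretches read at other widest peaks but not printed ran from 6 CG (Foxa2 and Sema4a) to 39 (Cracdl). They held 8 CG at Gapdh and 12 at Foxd1, which was also among the most variable.

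A gene start lay within 1 kb of 349 of the 436 widest peaks (80.05%), against 1702 of the 15008 peaks of 600 to 800 bp (11.3%) and 22.3% of all autosomal peaks. For 59 of the 349 the match rests on an end of the gene record alone, which may be the end of the gene and not its start. The reference gave no starts on chromosome 18, so its 19 widest peaks could be matched to record ends only. Zeb1, Cdh2, Spry4, Fzd8 and Sema6a, named below, are on that chromosome. Protein-coding genes stood at 322 of them (73.9%). A start, or an end of a gene record where no start was given, lay inside the peak in 331 (75.9%), against 7.22% of the peaks of 600 to 800 bp. A longer peak reaches more starts by its length alone. In a window of 500 bp on either side of the peak midpoint, the same size for every peak, a start site was found for 177 of 417 widest peaks (42.4%) and 925 of 14378 peaks of 600 to 800 bp (6.43%). Peaks on chromosome 18 were left out of these totals. The 87 widest peaks with no start within 1 kb had a median level of 17.9 CPM per kb, against 26.4 CPM per kb for the 349 with one. Of these 87, 53 lay inside or across a gene record.

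The widest peaks often covered several starts. In 101 of them (23.2%) at least 2 start sites lay inside the peak, against 0.753% of the peaks of 600 to 800 bp. In 63 (14.4%) start sites on both strands lay inside it, against 0.333%. Only start sites were counted, so peaks on chromosome 18 could not score, although they are in the totals. Longer peaks cover more starts by their length alone, and no window of equal size was used for these counts. Examples are Atp5j and Gabpa, an ATP synthase subunit and an ETS factor, whose peak was 2032 bp long, and Kmt2c with 4831440E17Rik at 2567 bp. The widest peaks over a single start site were not centred on it. Among 179 such peaks, a median of 841 bp lay before the start and 1336 bp after it, and 116 (64.8%) reached farther into the gene than ahead of it. The peaks of 600 to 800 bp reached a median of 361.5 bp before and 356 bp after. A longer reach after the start was also seen in 62.9% of the other peaks over a single start, so it was not particular to the widest ones.

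**Figure D1:**
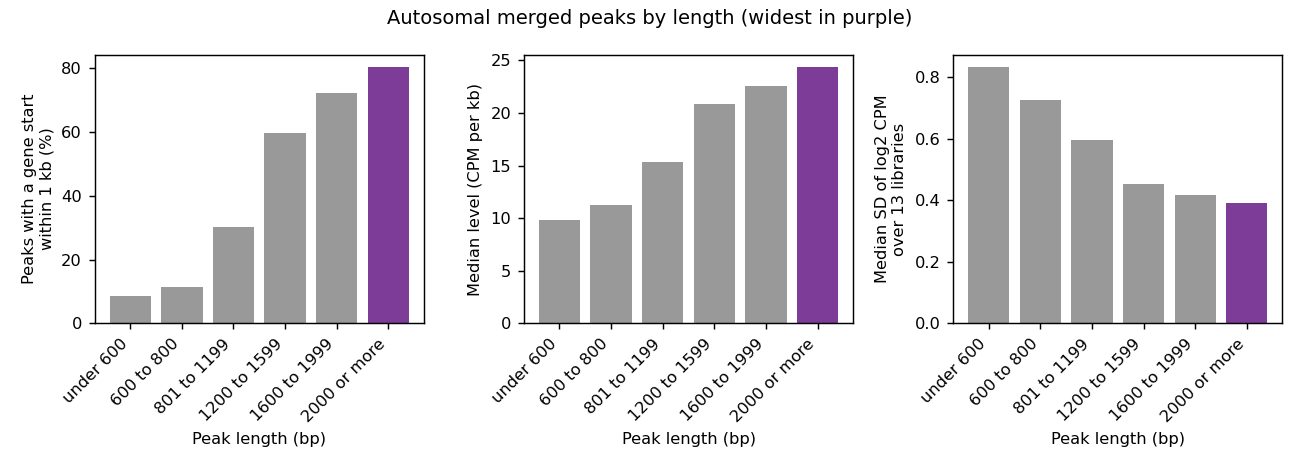
Autosomal peaks in 6 length classes, with the share that had a gene start within 1 kb (left, %), the median level (middle, CPM per kb) and the median SD of log2 CPM over the 13 libraries (right). From peaks under 600 bp to the widest ones (purple) the share with a start goes from 8.50% to 80.05%, the level from 9.79 to 24.3 CPM per kb and the SD from 0.83 to 0.39.

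The plot by length class shows all 3 values changing step by step with length, with the widest peaks at the end. Peaks of 1600 to 1999 bp already had a start within 1 kb in 72.2% of cases. The length classes were drawn after the data had been seen. Just inside the 2000 bp limit lay a peak inside Pxn and the peak at Peg13, both of 2000 bp, with mean levels of 43.8 and 44.6 CPM, and the peak at H4c14, of 2001 bp, with 47.9 CPM. Just outside it lay chr17:21515492-21517490 (1999 bp, 34.0 CPM), chr4:140929413-140931410 (1998 bp, 19.7 CPM) and the peak at Cd63 (1996 bp, 53.0 CPM).

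The starts under the widest peaks were rich in CG. In the window from 250 bases before to 50 after the start, 433 windows of 347 genes held a median of 25 CG, and 91.9% held at least 10. Windows in peaks of 600 to 800 bp held a median of 13 (60.8% with at least 10), those in any other peak 22 (84.9%) and those in no peak 4. The letters GGGCGG, searched on both strands like all motifs here, were in 72.3% of the windows in widest peaks, 66.3% of those in any other peak and 36.0% of all 31365 windows. CCAAT was in 27.3% against 37.3% of all windows, and TATAAA in 4.39% against 13.6%. TGANTCA, the letters bound by AP-1, was in 5.08% against 7.85% of all windows, and CCGGAA, the core letters of ETS factors, in 22.6% against 15.1% of all windows and 29.3% of those in any other peak. A window whose letters match is a description and not a bound site. Windows in any other peak held CCAAT in 37.8%, TATAAA in 6.47% and TGANTCA in 5.80%. Set beside those windows in any other peak, the widest peaks thus had more windows with GGGCGG and fewer with each of the other 4 motifs. The difference was small for TGANTCA, found in 22 of the 433 windows. In peaks of 600 to 800 bp, GGGCGG (47.3%) and CCGGAA (18.75%) were rarer than in the widest peaks. There CCAAT (38.5%), TATAAA (10.02%) and TGANTCA (13.7%) were more frequent.

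Among the genes that define what a cell is, 6 of 33 homeobox and developmental genes with any peak at their start had a widest peak (18.2%). They were Foxa1 and Foxa2, pioneer factors of endoderm, Gata5, Foxq1, Six4 and Twist1, a driver of mesenchymal change. Over all protein-coding genes, 365 of 12138 with a peak had a widest one (3.01%). Over all genes of the lists it was 24 of 276 (8.70%). Each list with a widest peak stood above 3.01%, so that was not particular to developmental genes. The level of the Foxa2 peak was 85.1 CPM on average, that of Foxa1 67.0 CPM and that of Gata5 45.3 CPM. Of the mesenchymal list, 2 of 17 had one (11.8%), Zeb1, a repressor of epithelial genes, and Cdh2, the cadherin of mesenchymal cells. Both are on chromosome 18, so their peaks were matched to an end of the gene record, which may not be the start. Of the epithelial list, 2 of 28 had one (7.14%), Ocln of tight junctions and Dsp of desmosomes. Signals downstream of RAS were represented by 3 of 18 feedback genes (16.7%), namely Spry4 and Spred1, both inhibitors of the pathway, and the ETS factor Etv1.

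Jun, a subunit of AP-1, and Ier5 were the 2 of 54 immediate early and AP-1 genes with a widest peak (3.70%), although all 54 had some peak. The Jun peak, which also covers Junos, stood at 139 CPM. Chromatin regulators gave 4 of 40, with Kmt2a and Kmt2c, methyltransferases of histone H3, the remodeller Chd4 and the DNA methyltransferase Dnmt3a. Cytoskeletal and housekeeping genes gave 5 of 34 (14.7%), with Gapdh at 145 CPM, Ubb, Hsp90ab1, Ldha and Pfn1, whose peak is shared with Eno3. None of 30 ribosomal protein genes had a widest peak, although all 30 had some peak, and none of 12 nuclear long noncoding RNA genes with a peak had one. The lists are short, so that 1 gene moves a share by several percentage points. Among genes with symbols in Zfp, Zbtb or Zscan, a set drawn up after the names had been seen, 14 of 365 had one (3.84%), near the share of all coding genes. Hairpins of 3 miRNAs lay in widest peaks, Mir1956 at Eif4e, Mir7045 at Chd4 and Mir1199 at Misp3.

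The longest of all, 3711 bp over Jade2 and Gm30110, was not among the highest. Its level was 46.9 CPM in the lowest library, 71.7 CPM in the median one and 95.4 CPM in the highest, a mean of 18.8 CPM per kb. The next were the peak at LOC108167694 and 4930526I15Rik (3181 bp), that at Ugt1a1, an enzyme that conjugates bilirubin (3134 bp), and that at Eno3 and Pfn1 (3002 bp). Peaks of nearly this length also lay away from any start or record end in the reference. They were chr11:88213708-88216637 at 2930 bp, with Mrps23 at 9320 bp, and a peak of 2864 bp inside Nr3c1, the glucocorticoid receptor gene. Nr3c1 is on chromosome 18, where the reference gave no starts, and the nearest end of a gene record was 27641 bp away. A start inside the record would not be seen there. The peak inside Nr3c1 had a mean of 139 CPM, higher than 25.4 CPM at the one near Mrps23.

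Per kb, 2 widest peaks stood far above the rest, and neither lay at a gene start. The peak chr4:80002390-80005222 had a mean of 671 CPM (237 per kb), and its nearest gene, Gm32658, was 625090 bp away. The peak chr2:22588113-22590584, inside Myo3a, had a mean of 503 CPM (204 per kb). The next highest was the peak at Skil, a repressor of TGF-beta signalling, with 92.2 CPM per kb. Both peaks were highest in 6556c3, at 1183 and 859 CPM, and next highest in 7160c2, at 1054 and 722 CPM, the 2 libraries with the fewest counts. They were lowest in 6499c4 and 6419c1, the libraries with the most counts, where the first was at 371 and 380 CPM and the second at 291 and 286 CPM. Together they took 0.0649% to 0.215% of the autosomal counts of a library. Depth thus moved with their level, and its part was not tested.

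Of the other 8 highest per kb, 1 lay at LOC108167694 and 4930526I15Rik near the end of chromosome 9 and 7 at coding genes. Klf13, a zinc finger factor, had 161, 191 and 249 CPM in the lowest, median and highest library. Skil had 149, 211 and 263 CPM. Rap2b, a small GTPase, had 121, 169 and 209 CPM. The highest library was thus less than 2 times the lowest at each of these 3. The others were Dipk2a, Zfp687, Mex3b, which binds RNA, and Larp1b of the La-related family.

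As a group, the widest peaks held 2.75% of the counts in autosomal peaks on average over the 13 libraries, and a slightly larger share in the T cell low clones. The share was 2.54%, 2.61% and 2.93% in the lowest, median and highest T cell high library and 2.74%, 2.78% and 3.08% in the T cell low ones. All T cell high libraries except 6421c2 (2.93%) lay below every T cell low library. The means were 2.65% ± 0.142 (SD, n = 6) and 2.84% ± 0.124 (SD, n = 7), a difference of -0.184 percentage points, with p = 0.0315 by a two-sided exact permutation test and 0.0472 after adjustment over the 3 comparisons of single values made here. The peaks of 600 to 800 bp held 15.9% ± 0.566 (SD, n = 6) and 15.3% ± 0.863 (SD, n = 7), p = 0.142 by the same exact test. This result rests on few libraries. Leaving out 6499c4, 6620c1, 7160c2, 2699c4 or 6499c3 gave p from 0.0541 to 0.0720, and leaving out the 10 highest widest peaks gave a difference of -0.159 with p = 0.0944 (all exact tests, unadjusted). All other peaks with a start within 1 kb held 44.0% ± 1.76 (SD, n = 6) and 45.4% ± 3.25 (SD, n = 7) of the counts. This share was highest, at 50.8%, in 6499c3, which also had the largest share in the widest peaks. Its part in the difference was not tested.

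**Figure D2:**
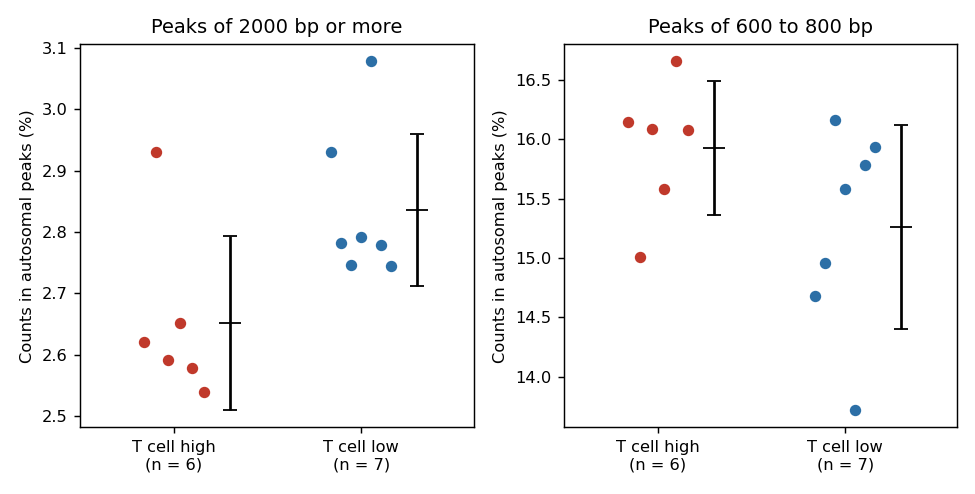
Share of the autosomal counts of each library in the widest peaks (left, %) and in peaks of 600 to 800 bp (right, %), with 1 point per clone and the mean ± SD of each group beside it; both axes start above 0. On the left, 5 of the 6 T cell high clones lie at or below 2.65% and all 7 T cell low clones at or above 2.74%, and on the right the groups overlap.

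Per kb of peak, a widest peak collected more counts than one of 600 to 800 bp in each of the 13 libraries. The level was 28.3 ± 1.64 CPM per kb (SD, n = 13) against 14.9 ± 0.756, and the ratio ran from 1.67 in 6620c1 to 2.42 in 6499c3. The submitters set peak widths from reads of these libraries, so width and level are not independent and no test was made.

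The widest peaks differed less from clone to clone than peaks of 600 to 800 bp, while the difference from the higher ones among those did not pass the test. For each library, the deviation of log2 CPM from the mean of the other libraries was taken at each peak. Its median absolute value was 0.29 ± 0.070 (SD, n = 13) in the widest peaks and 0.51 ± 0.068 in those of 600 to 800 bp. It was lower in the widest peaks in 13 of 13 libraries, by 0.22 on average (two-sided exact sign-flip permutation test, p = 0.000244, the smallest it can give, and 0.000732 adjusted over 3). The median level was 54.6 CPM in the widest peaks and 7.81 CPM in those of 600 to 800 bp, and spread falls with level. This test therefore cannot tell width from level. Each value also used the mean of the other libraries, so the 13 values were not independent. Against the 262 peaks of 600 to 800 bp with a mean of at least 36.0 CPM, the lower quartile of the widest peaks, the difference was -0.01 (p = 0.396 by the same exact test). The levels of these sets were closer but not equal, with medians of 42.3 CPM in the 262 and 54.6 CPM in the widest peaks.

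The spread of single peaks showed the same dependence on level. The median SD of log2 CPM over the 13 libraries was 0.39 in the widest peaks, 0.73 in those of 600 to 800 bp and 0.41 in the 262 of at least 36.0 CPM. Once the variance expected from counting was taken off, the coefficient of variation was 0.253, 0.447 and 0.264. Reads and not fragments were counted, so that variance may be too small. With it doubled, the values were 0.237, 0.377 and 0.243. Among peaks of 10 to 20 CPM, the 23 widest peaks had a median SD of 0.71, against 0.62 in 3788 peaks of 600 to 800 bp. At 40 to 80 CPM these were 0.38 (195 peaks) and 0.39 (164 peaks). The order of the 2 sets thus changed with the level, and these bins were chosen after the data had been seen. Widest peaks with a start within 1 kb had a median SD of 0.38 and those without one 0.47, with median levels of 59.2 and 39.2 CPM.

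**Figure D3:**
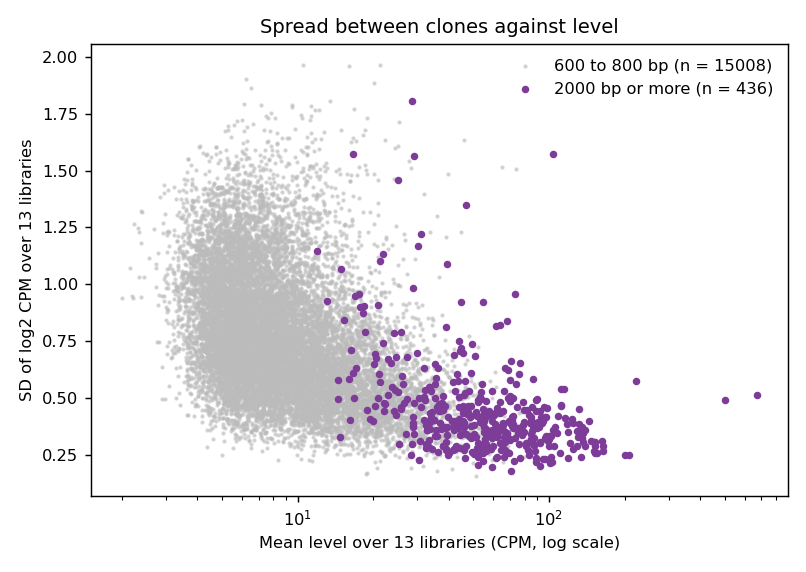
SD of log2 CPM over the 13 libraries against the mean level (CPM, log scale) for the 436 widest peaks (purple) and the 15008 peaks of 600 to 800 bp (grey), 1 point per peak. The SD falls with level in both sets, and 13 widest peaks lie above an SD of 1.

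In 71 of the 436 widest peaks the highest library was less than 2 times the lowest, and in 28 at least 8 times. No widest peak was at 0 counts in any library. The steadiest was that at Rasa2, which shuts off RAS by speeding its hydrolysis of GTP, at 56.8, 69.3 and 81.6 CPM in the lowest, median and highest library (SD of log2 CPM 0.18). After it came Anp32b, a nuclear phosphoprotein, at 45.3, 59.6 and 73.4 CPM, Plekha5 and Top2b, a topoisomerase, at 79.7, 96.9 and 130 CPM, and a peak inside Aff1 far from any start. The Rasa2 peak was thus open to a similar degree in all 13 clones.

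Only 13 of the 436 widest peaks (2.98%) had an SD above 1, against 20.02% of the peaks of 600 to 800 bp and 2.67% of those of at least 36.0 CPM. The first of them was at Sall1. Sall1, a zinc finger factor of the developing kidney, had 0.864 CPM in 6620c1, a median of 14.6 CPM and 77.5 CPM in 2838c3. The T cell low clones 2699c4 and 6694c2 stood almost as high as 2838c3, at 71.7 CPM each, while the other T cell high clones stood at 14.6 CPM or lower. Twist1 was at 0.529 CPM in 2838c3 (2 counts) and at 35.9 to 56.3 CPM in the other 5 T cell high clones. In the T cell low clones it ran from 5.36 CPM in 6499c3 to 50.7 CPM in 6419c1. The clone with the least signal at Twist1 was thus the one with the most at Sall1. Foxd1, a forkhead factor, ran from 1.72 CPM in 6555c3 to 29.7 CPM in 6694c2. Etv1 ran from 4.36 CPM in 6499c3 to 62.4 CPM in 6694c2.

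The others of the 10 most variable had different roles. Crlf2, the receptor subunit for the cytokine TSLP, had 7.37 CPM in 6499c3, 9.95 CPM in 6499c4 and 24.2 CPM in 6419c5, a median of 80.5 CPM and 287 CPM in 6421c2. The clones 6499c3 and 6499c4, of different groups, were thus the 2 lowest at Crlf2. Fzd8, a receptor for Wnt ligands, ran from 4.30 CPM in 6555c3 to 89.7 CPM in 6422c1. Sema6a, a transmembrane semaphorin, ran from 8.04 CPM in 6499c3 to 135 CPM in 6555c3. Slc6a15, a transporter of neutral amino acids, ran from 1.39 CPM in 2699c4 to 71.4 CPM in 6421c2. Shisa6, a partner of AMPA receptors, and Lgals12, a galectin, ran from 2.68 to 50.7 CPM and from 2.04 to 56.3 CPM. The groups overlapped at each of the 10.

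**Figure D4:**
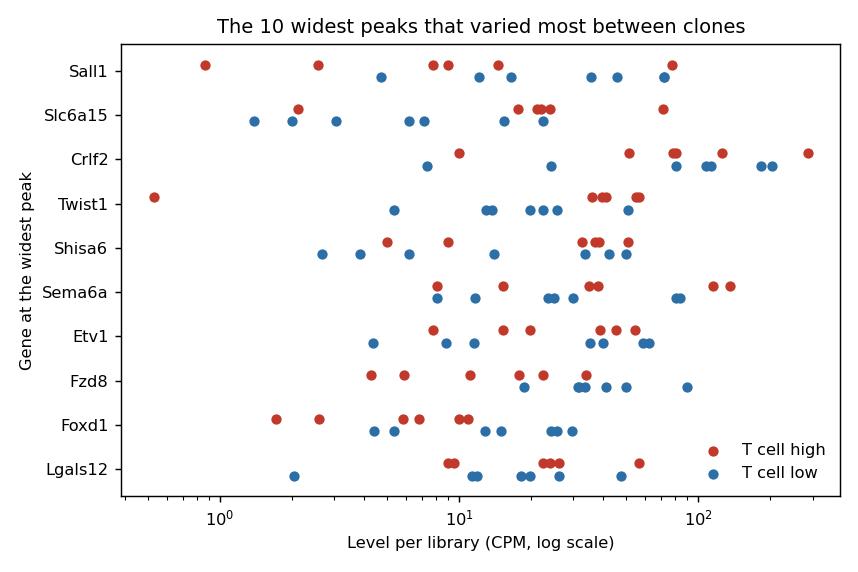
Level per library (CPM, log scale) at the 10 widest peaks with the largest SD of log2 CPM, 1 point per clone, coloured by group. The points of the groups overlap at all 10, and 2838c3 lies apart at Twist1, at 0.529 CPM.

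Subtracting the local signal of other peaks within 2 Mb, where gains and losses of chromosome segments would also show, lowered the median SD of the widest peaks from 0.39 to 0.34 and left the most variable ones wide apart. The SD went from 1.81 to 1.62 at Sall1, from 1.58 to 1.44 at Slc6a15 and from 1.56 to 1.62 at Twist1. Foxa1 dropped from 0.63 to 0.43. Gains and losses shorter than the window and accessibility cannot be told apart in these counts. Of the 13 libraries, 6499c3 was the highest at 109 of the 436 widest peaks, and 7160c2, the library with the fewest counts, was the lowest at 104.

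No widest peak passed the test of T cell high against T cell low. All 436 passed the filter on low counts and were tested, and 0 had an adjusted p under 0.05 (0.0% of the 59252 peaks tested did). The smallest adjusted p of a widest peak was 0.547 (edgeR quasi-likelihood test with Benjamini-Hochberg adjustment). DESeq2 called 46 peaks of the whole table and limma-voom 0, none of them a widest peak. At an unadjusted p under 0.05 there were 35 widest peaks (8.03%), against 6.83% of all peaks tested. Of the 35, 6 were higher in the T cell high clones (3.86% of all peaks were) and 29 lower (2.96% of all were). DESeq2 gave 33 (7.57%, against 8.38% of all peaks) and limma-voom 38 (8.72%, against 8.52%) at that limit. Leaving out 2838c3 gave 61 (13.99%, against 10.7% of all) and leaving out 6499c4 gave 22 (5.05%, against 5.37%) in edgeR. In either direction, the share of widest peaks at this limit thus lay above or below that of all peaks depending on the tool and the clones. In edgeR with all clones, the 8.03% was near the 7.91% of peaks of 600 to 800 bp. It was above the 5.34% of the 13906 other peaks with a start within 1 kb. It was also above the 4.86% of the 6376 other peaks with a mean of at least 36.0 CPM. Most of the 35 were lower in the T cell high clones, while among all peaks more were higher. These differences were not tested.

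The fold changes of the widest peaks were centred slightly below 0. Their median log2 fold change, T cell high over T cell low, was -0.08, against 0.01 over all peaks tested and -0.05 over the 13906 other peaks with a start within 1 kb. It was below 0 in 67.4% of the widest peaks and in 48.7% of all. The median was -0.09 in those with a start and -0.02 in those without. With local signal within 2 Mb taken off it was -0.10, and leaving out single clones gave -0.14 to -0.07. These are descriptions of a small shift and have no test.

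**Figure D5:**
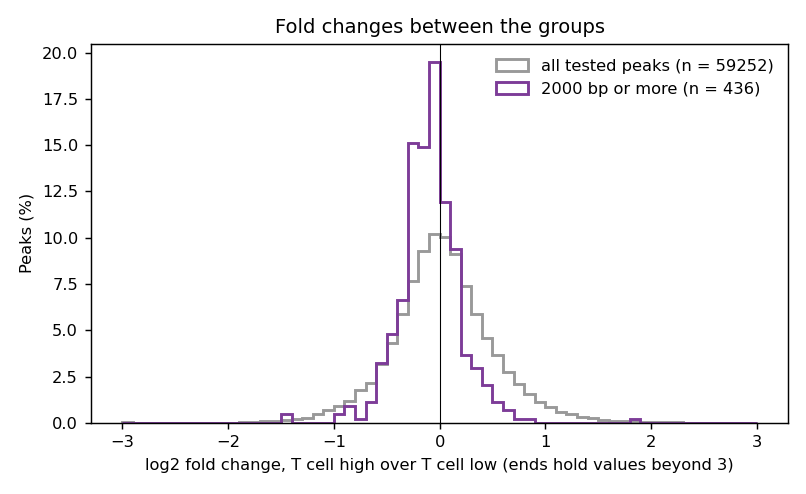
Distribution of the log2 fold change, T cell high over T cell low, in the 436 widest peaks (purple) and in all 59252 peaks tested (grey), as the percentage of peaks per bin. The widest peaks form a narrower curve with a median of -0.08, against 0.01 for all.

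The 10 widest peaks with the smallest p had unadjusted values from 0.00123 to 0.0134, and none passed adjustment (edgeR, adjusted p from 0.547 to 0.651). At Fzd8, the first of them, the T cell high clones had 4.30, 14.4 and 33.9 CPM in the lowest, median and highest library and the T cell low clones 18.7, 33.5 and 89.7 CPM. The groups overlapped, with a log2 fold change of -1.49 (SE 0.40) and an adjusted p of 0.547 in edgeR. Sema4a, a semaphorin that also acts on T cells, had a mean of 15.03 ± 4.09 CPM (SD, n = 6) and 29.8 ± 9.33 CPM (SD, n = 7), with a log2 difference of -0.97. At the shared peak of Atp5j and Gabpa the means were 71.2 ± 17.3 and 109 ± 20.4 CPM (SD, n = 6 and 7), which is -0.63 on the log2 scale. This value was -0.22 once local signal was taken off, with an unadjusted p of 0.351 in edgeR. Slc6a15 was the only 1 of the 10 with a higher mean in the T cell high clones, 26.4 ± 23.4 against 8.22 ± 7.85 CPM (SD, n = 6 and 7), or 1.80 on the log2 scale, which became 1.17 without 6421c2.

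Foxd1 had 6.30 ± 3.73 CPM in the T cell high and 16.7 ± 10.01 CPM in the T cell low clones (SD, n = 6 and 7), or -1.41 on the log2 scale. Dnmt3a had 47.8 ± 6.43 and 70.9 ± 18.2 CPM, a log2 fold change of -0.56. Jmy, which nucleates actin and acts with p53, had 46.0 ± 13.3 and 67.6 ± 12.1 CPM, a log2 fold change of -0.54. The other 3 had no gene start or record end within 1 kb. They were a peak inside Bad, a pro-apoptotic gene of the BCL2 family (chr19:6950602-6952964, 37.0 ± 10.4 and 56.5 ± 9.29 CPM), chr6:39780958-39783180 (13.8 ± 4.27 and 25.6 ± 10.3 CPM), and chr19:5793166-5795669, whose nearest gene was Malat1 at 7003 bp (26.5 ± 4.78 and 39.8 ± 10.6 CPM).

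Cdh2 was the single widest peak at which the groups did not overlap, against 0.162% of all peaks tested in either direction and 0.0945% with the T cell high clones lower. A single such peak among 436 is near what the share over all peaks gives, so no result about the widest peaks is read from it. At Cdh2, the T cell high clones had 7.76, 63.9 and 74.3 CPM in the lowest, median and highest library, and the T cell low clones 81.6, 90.4 and 97.6 CPM. All T cell low clones thus stood above all T cell high clones, and 6421c2 stood far below the rest. The log2 fold change was -0.78 (SE 0.30), with an adjusted p of 0.666 in edgeR, and leaving out single clones gave -0.92 to -0.55. At Zeb1, the other mesenchymal gene, the log2 fold change was -0.28 with overlapping groups. Over the 7 lists with a widest peak, edgeR's unadjusted p was under 0.05 at 4 of their 24 peaks (16.7%, against 6.83% of all peaks tested, a count too small to read a difference from). They were those at Six4, Foxq1, Dnmt3a and Cdh2, each with a lower mean in the T cell high clones (2.96% of all peaks were called lower), and none had an adjusted p under 0.05.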

How the data were processed

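ATAC-seq was measured in sorted tumour cells of 15 clones. The deposited table gave, per merged peak, the raw count of reads in 13 of them, made by the authors with featureCounts 1.5.3 from alignments with duplicates removed, per the file headers, on mm10, per the submitters' processing notes. Clones labelled T cell intermediate (2) were not used here. The aligner, the peak caller and the rule for merging peaks remain unknown, being not given in the sources used here. Peaks were counted as unstranded reads and not as fragments, so counts are not independent molecules. Every column was matched to a sample by clone name, and no 2 columns were identical.

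Counts were scaled with TMM (edgeR 4.0.16) and given as CPM, or as log2 CPM with a prior count of 2. The groups were compared over the whole table with filterByExpr and edgeR's quasi-likelihood test, with Benjamini-Hochberg adjustment, and an SE is the log2 fold change over the square root of F. Single values per library were compared by two-sided exact permutation tests (1716 arrangements, or 8192 sign flips). DESeq2 1.42.0, limma 3.58.1 and a correction for the signal of other peaks within 2 Mb were alternatives. The tests were tried on simulated data.

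Gene starts came from RefSeq (GRCm38.p6), or from either end of the gene record where the table gave no start, as on all of chromosome 18. With no genome sequence used here, exons, introns and UTRs of the peaks were not analysed. Genes were named by rule: the 10 longest, the 10 highest per kb, the 10 smallest p, the 10 largest and 5 smallest SD, up to 6 per gene list, and 3 on each side of the length limit. The members and lists were chosen with earlier results of these data known.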

Additional observations from a re-analysis of the deposited data

Results flagged for a closer look

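Among the named widest peaks and the values per library, 134 groups of clones were searched for a single clone far from the others, and 13 were found, where chance gives about 1 in 20 groups of peaks not chosen by their values. Some of these peaks were named for a large spread or a small p, so that rate does not apply to them. In the share of counts in the widest peaks, 6421c2 stood above the other T cell high clones at 2.93%, next to 2.65%. The clone 2838c3 stood apart from the other T cell high clones at 3 peaks, with 0.529 CPM at Twist1, where the next lowest had 35.9 CPM, with 77.5 CPM at Sall1, next to 14.6 CPM, and with 128 CPM at Top2b, next to 96.9 CPM. Further T cell high clones that stood apart were 7160c2 at Ugt1a1 with 136 CPM, 6421c2 at Slc6a15 with 71.4 CPM, 6555c3 at Lgals12 with 56.3 CPM and 6620c1, the lowest, at Sema4a with 7.34 CPM. T cell low clones that stood above the rest of their group were 6556c3 at Ocln with 33.6 CPM, 2699c4 at Tfap4 with 82.1 CPM, 6499c3 at Foxa2 with 116 CPM and at the peak inside Nr3c1 with 217 CPM, and 6694c2 at chr4:9079756-9082589 with 78.5 CPM.

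Outside the autosomes, 15 peaks on chromosome X were 2000 bp or longer and were left out of the comparisons. They held 0.0358% to 0.0750% of the counts of a library.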

How the results depend on the processing

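No paired analysis was possible because the replicate numbers follow accession order and pair no clones. The difference in the share of counts in the widest peaks was -0.184 percentage points (p = 0.0315, exact permutation test). It no longer passed 0.05 without the 10 highest peaks (-0.159, exact p = 0.0944), nor, as chosen after seeing the data, without 2838c3 and 2699c4 (-0.162, p = 0.0823). Leaving out 1 clone at a time gave -0.240 to -0.144, with p from 0.00126 to 0.0720 (all exact permutation tests). The difference in spread between clones, -0.22 on the log2 scale, was -0.011 (p = 0.396, exact test) against peaks of 600 to 800 bp with at least 36.0 CPM, and -0.23 to -0.21 without 1 clone. The 35 widest peaks at an unadjusted p under 0.05 (8.03%, against 6.83% of all peaks) became 82 of 982 (8.35%) with a length minimum of 1800 bp, and 22 (5.05%, against 5.37% of all) to 61 (13.99%, against 10.7%) without 1 clone. The 349 widest peaks with a gene start became 177 when a start site had to lie within 500 bp of the midpoint, a rule added later that leaves out genes with no start in the table. The other 86 values of these results under the alternatives kept their direction and their side of the threshold, which for the tests was an unadjusted p of 0.05. For the share, some of these lay close to it. Exact tests gave p = 0.0480 without 2838c3 and p = 0.0385 as a share of counts in all peaks. The main p of 0.0315 became 0.0472 when adjusted, and the alternatives were not adjusted. Of 190 values at the 10 peaks with the smallest p, 188 did, the exceptions being Atp5j with local signal removed and Slc6a15 without 6421c2. With 968296 to 7369228 counts per library, low levels are the least precise: Twist1 in 2838c3 rests on 2 counts.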
